A study of Homo sapiens with 8 samples.

Results

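The fibroblast growth factor (FGF) ligands FGF2, FGF3, FGF4, FGF5, FGF8, FGF9, FGF10, FGF17, FGF18 and FGF19 were followed through a stepwise culture that turns H1, an established line of human embryonic stem cells, into endoderm of the embryonic throat. Members were the gene rows whose identifiers carry these 10 symbols in GENCODE 29, 10 of 58780 genes in all. The stages were the undifferentiated line (hESC), then definitive endoderm (hDE). These were followed by endoderm of the anterior foregut (hAFE) and of the pharyngeal foregut (hPFE), each stage with 2 strand-specific libraries from total RNA depleted of ribosomal RNA. All 8 libraries came from the same line, and the labels name no genotype or added factor. The titles mark the 4 hESC and hDE libraries as re-analysed and the 4 hAFE and hPFE libraries not, so in hAFE vs hDE, hPFE vs hDE, hAFE vs hESC and hPFE vs hESC the stage and that difference in origin cannot be told apart. Nothing in the labels says whether the 2 libraries of a stage are separate differentiations, and p-values therefore reflect a spread between libraries that may be technical.

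FGFs are secreted proteins that bind tyrosine kinase receptors with the help of heparan sulfate and switch on the RAS and ERK cascade. That cascade induces its own brakes, the Sprouty and Spred proteins and the DUSP phosphatases, together with ETV transcription factors. In mouse embryos FGF4 and FGF8 act in the primitive streak as mesoderm and endoderm form, and FGF3, FGF8 and FGF10 act in and around the pharyngeal pouches. Added FGF2 is a standard component of media that keep human embryonic stem cells undifferentiated.

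Library totals ran from 12687160.9 to 17802899.9 expected counts. Levels are CPM, the usual depth-scaled counts, after TMM scaling unless TPM, which allows for transcript length, is named. Each adjusted p is that of edgeR's quasi-likelihood test with Benjamini-Hochberg adjustment over 17446 genes, with 0.05 as the threshold for a call. The stage labels were checked against markers. POU5F1 was at 477 and 584 TPM in hESC and at most 10.32 TPM elsewhere. Of the 5 pluripotency markers, 4 fell in hDE vs hESC. TDGF1 did not pass, at 149.9 and 165.5 TPM in hDE, against 117.99 and 149.85 TPM in hESC. SOX2 was at 24.55 and 26.29 TPM in hESC, 40.28 and 13.88 TPM in hAFE, and 29.54 and 34.61 TPM in hPFE. SOX17 was at 17.9 and 21.9 TPM in hDE. Of the 7 foregut markers, 3 rose, 1 fell and 3 did not pass in hAFE vs hDE. FOXA1 was at 20.91 and 6.86 TPM in hAFE, against 0.91 and 1.24 TPM in hDE. HHEX went the other way, at 0.08 and 1.30 TPM in hAFE, against 6.29 and 8.17 TPM in hDE. OTX2 was at 106.59 and 121.75 TPM in hDE, above both hAFE libraries. The 7 pharyngeal markers summed to 30.2 and 20.0 TPM in hPFE, against 12.8 and 30.6 TPM in hAFE. Library 2 of hAFE stood apart from library 1, with OTX2 at 5.52 TPM in library 1 and 99.8 TPM in library 2, GATA6 at 3.74 and 0.09 TPM, and TBX1 at 0.33 and 3.81 TPM. The 5 mesenchymal markers summed to 155 and 23.5 TPM in hPFE and to 1.66 to 3.07 TPM in the libraries of other stages. COL3A1 made up most of the gap between the hPFE sums, with 136 TPM in library 1 and 5.30 TPM in library 2. DCN at 2.04 and 0.13 TPM and TWIST1 at 0.54 and 0.08 TPM were also lower in library 2. COL1A1 was at 12.73 and 14.07 TPM and PDGFRB at 3.61 and 3.97 TPM. In CPM, however, library 2 was at 0.74 of library 1 for COL1A1 and 0.60 for PDGFRB. In bulk RNA, fewer cells that make a ligand and less of its RNA per cell cannot be told apart.

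The blend of ligand messages differed between hESC, hDE and the foregut stages, and no share was tested. In hESC FGF2 made up 82.3% and 78.0% of the summed TPM of the 10 ligands, and FGF19 made up most of the rest with 14.7% and 18.3%. In hDE FGF17 held 88.2% and 88.7% and its relative FGF8 11.3% and 10.6%, while FGF2 held 0.329% and 0.364%. In hAFE the libraries differed. FGF2 held 58.5% in library 1 and 10.2% in library 2, whereas FGF10 held 8.89% in library 1 and 43.5% in library 2. In hPFE FGF9 with 37.9% and 25.1% and FGF2 with 24.2% and 35.1% led, followed by FGF10 with 13.2% and 13.8% and FGF19 with 10.7% and 11.04%. The hPFE shares of FGF2 and FGF10 lay between those of the hAFE libraries, and those of FGF9 and FGF19 lay above both. Summed over the 10 ligands, hESC libraries held 14.2 and 15.0 TPM and hDE libraries 85.1 and 85.0 TPM. The hAFE libraries held 2.70 and 10.9 TPM, and the hPFE libraries 5.59 and 8.24 TPM. FGF17 made up most of the hDE sum. Sums of TPM in different stages are given as deposited and without a test, because a few abundant RNAs took unequal shares of TPM.

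**Figure D1:**
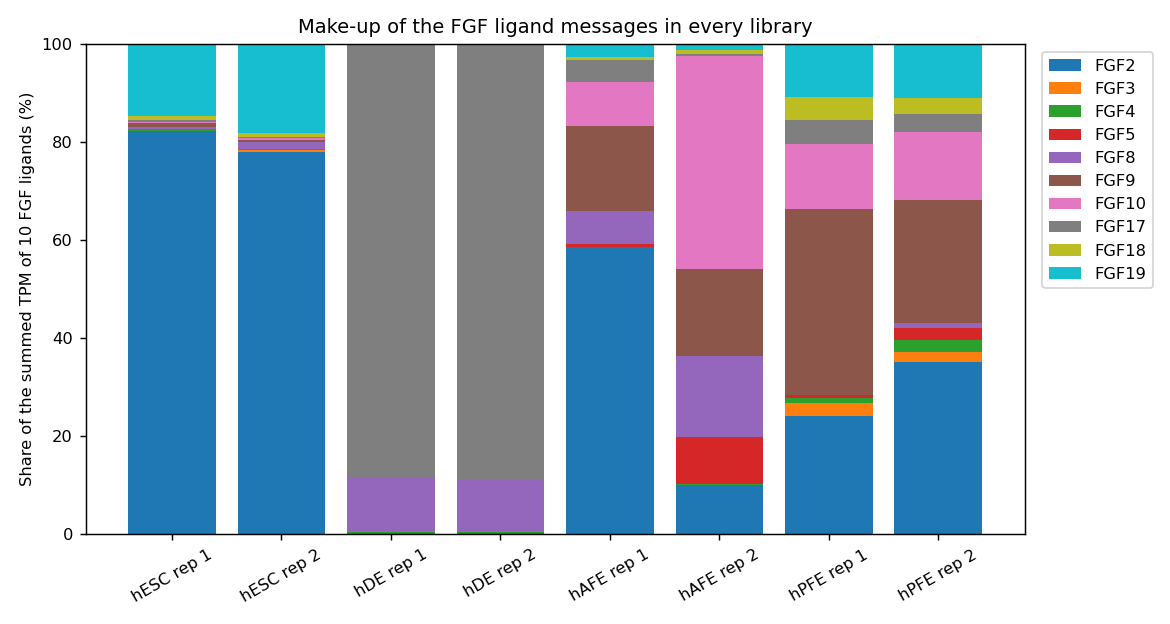
Share of each of the 10 FGF ligands in their summed TPM (y axis, %) for each of the 8 libraries (x axis), stacked by ligand. FGF2 fills most of the hESC bars and FGF17 most of the hDE bars, and the hAFE libraries differ from each other in FGF2 and FGF10.

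Of the 10 ligands, 7 passed the filter on low counts and were tested. FGF3, FGF4 and FGF18 did not pass. In hDE vs hESC, FGF17 and FGF8 rose and FGF2 and FGF19 fell, so 4 of the 7 were called, where 41.9% of all tested genes were called (20.3% higher, 21.6% lower). In hAFE vs hDE, FGF2, FGF9 and FGF10 rose and FGF17 and FGF8 fell, 5 of the 7, where 30.2% of tested genes were called (15% higher, 15.2% lower). In hPFE vs hAFE FGF19 rose and was the one member called, where 7.49% of tested genes were called (4.77% higher, 2.71% lower). In hPFE vs hESC, FGF9 and FGF17 rose and FGF2 and FGF19 fell, 4 of the 7, where 45% of tested genes were called (21.6% higher, 23.3% lower). The FGF17 call there rests on few counts, because the gene passed the filter through its level in hDE. In hAFE vs hESC, FGF5, FGF9 and FGF10 rose and FGF2 and FGF19 fell, 5 of the 7, where 39.8% of tested genes were called (19.2% higher, 20.6% lower). In hPFE vs hDE, FGF2, FGF9 and FGF19 rose and FGF17 and FGF8 fell, 5 of the 7, where 33.6% of tested genes were called (16.6% higher, 17% lower). With so many genes called and 7 members tested, these counts do not set the family apart from other genes. Comparisons that have a stage in common share its libraries. They are therefore not independent of each other.

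**Figure D2:**
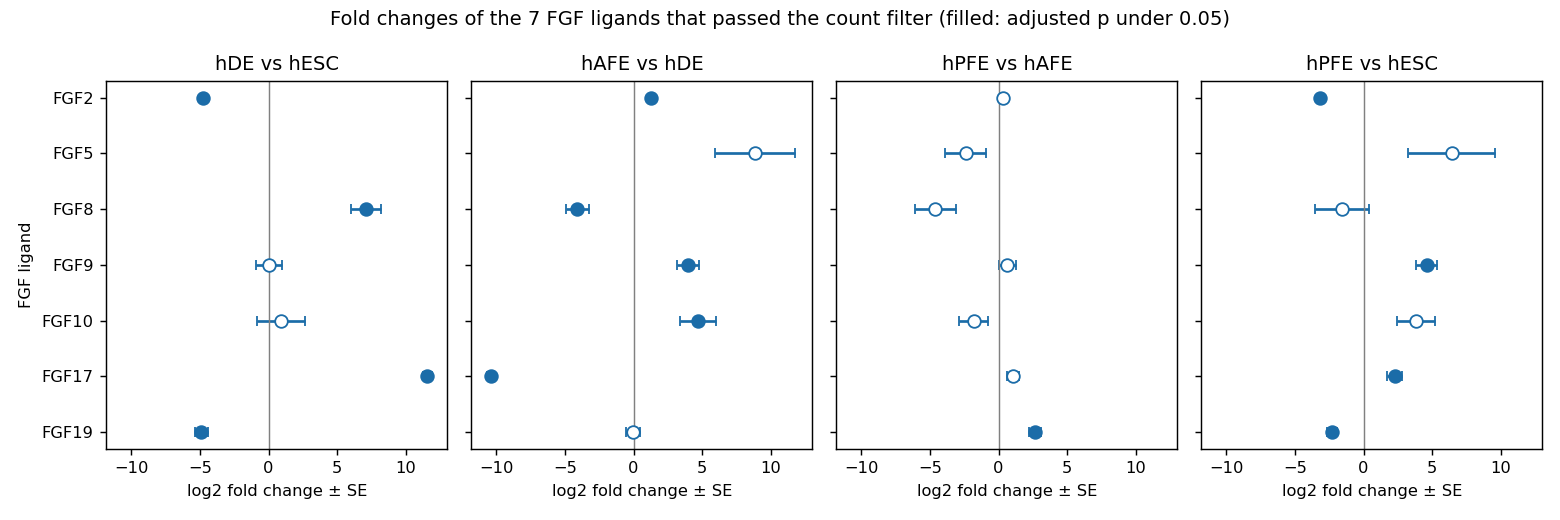
Log2 fold change with its SE (x axis) of the 7 FGF ligands that passed the count filter (y axis) in 4 comparisons of stages, the later stage over the earlier, with filled points for an adjusted p under 0.05. FGF17 has the largest fitted change in hDE vs hESC and in hAFE vs hDE, and fitted values of FGF5 against stages at 0 counts are not bounds.

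FGF17 and FGF8, with FGF18, form the FGF8 subfamily of ligands, which in the mouse act at the border of midbrain and hindbrain. FGF17 was abundant in hDE and close to the detection limit at the other 3 stages. It was at 389 and 378 CPM in hDE, against 0.120 and 0.113 CPM in hESC, where each library held 2 counts. The groups lay far apart, with a log2 fold change of 11.58 ± 0.324 (SE, edgeR adjusted p = 5.63e-06). The ratio of the summed counts after scaling was 3289, with an exact 95% interval of 1284 to 12073 for counting error. FGF17 then stood at 0.396 and 0.146 CPM in hAFE, which was 10.39 lower than hDE on the log2 scale (log2 fold change -10.39 ± 0.301, edgeR adjusted p = 7.39e-06). FGF17 passed the count filter through hDE, where it had 4374 and 5220 counts, so its tests between other stages rest on few counts. In hPFE it was at 0.728 and 0.433 CPM, or 12 and 6 counts. That level was above hESC by a log2 fold change of 2.26 ± 0.522 (edgeR adjusted p = 0.0103), and the call was lost without either hESC library or without library 1 of hPFE (adjusted p = 0.0582, 0.0674 and 0.0821). The order of its stage means was hDE, hPFE, hAFE and hESC. The neighbours hPFE and hAFE did not differ by the test (log2 fold change 1.07 ± 0.456, edgeR adjusted p = 0.216), nor did hAFE and hESC (1.19 ± 0.617, adjusted p = 0.225).

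FGF8 also had its highest level in hDE. It was at 17.9 and 16.4 CPM in hDE, against 0.0601 and 0.170 CPM in hESC, with no overlap and a log2 fold change of 7.10 ± 1.07 (edgeR adjusted p = 0.00181). Per length, FGF8 was at 9.61 and 9.03 TPM in hDE and FGF17 at 75.02 and 75.46 TPM. In hAFE the libraries disagreed, with FGF8 at 0.132 CPM in library 1 and 1.90 CPM in library 2, or 2 and 26 counts. Both lay below hDE (log2 fold change -4.09 ± 0.847, edgeR adjusted p = 0.00952), and the difference was larger without library 2 of hAFE (-6.93, adjusted p = 0.000472). Without library 1 or library 2 of hDE the adjusted p was 0.0562 or 0.0528. In hPFE there was 1 count over both libraries, in library 2. The scaled ratio of hPFE to hDE was 0.00193, with a 95% counting interval of 4.88e-05 to 0.0108, and the call held (edgeR adjusted p = 0.00181). For hPFE vs hAFE the adjusted p was 0.0968, although both hPFE libraries lay below both hAFE libraries, and without library 1 of hAFE it was 0.00785. The order of means was hDE, hAFE, hESC and hPFE, and of the neighbours the test separated hDE from hAFE only.

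Of the 6 markers of primitive streak and mesoderm 2 were tested in hDE vs hESC, and they moved in opposite directions. MIXL1 rose, at 15.5 and 19.1 TPM in hDE, against 0.17 and 0.35 TPM in hESC (log2 fold change 7.19 ± 0.540 on counts, edgeR adjusted p = 0.000107). TNNT2 fell, at 0.27 and 0.14 TPM in hDE, against 1.46 and 1.49 TPM in hESC (log2 fold change -2.42 ± 0.540 on counts, edgeR adjusted p = 0.00969). The 6 summed to 15.9 and 19.5 TPM in hDE, against 1.92 and 2.05 TPM in hESC, and MIXL1 made up nearly all of the hDE sum. TBX6 was at 0.03 and 0.06 TPM in hDE, against 0.26 and 0.15 TPM in hESC, and HAND1 was at or below 0.04 TPM in both stages. The mesoderm gene TBXT was at 0.04 and 0.06 TPM in hDE, against 0.01 and 0.06 TPM in hESC, and MESP1 at 0 and 0.18 TPM in hDE, against 0 in both hESC libraries. The part of streak cells in the FGF17 and FGF8 levels was not tested.

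FGF18, the remaining member of this subfamily, stayed near the detection limit with 9 and 8 counts in hESC, 1 and 3 in hDE, 1 and 4 in hAFE, and 14 and 8 in hPFE. Its highest level was 0.27 TPM in each hPFE library. The 3 coding sequences are close relatives. The longest coding sequences of FGF8 and FGF17 were identical at 72.8% of aligned bases, those of FGF8 and FGF18 at 68.6% and those of FGF17 and FGF18 at 67.4%. The 60 coding bases with the most matches between FGF8 and FGF18 are shown because FGF8 was called in hDE and FGF18 stayed at 1 and 3 counts there, while their sequences are alike. They lie in exon 6 of FGF8 (hg38 chr10:101770476-101770535, minus strand, coding bases 529 to 588) and exon 5 of FGF18 (chr5:171456623-171456682, plus strand, coding bases 442 to 501), both from GENCODE 29. Capitals mark the 11 of 60 bases at which the genes differ.
FGF8: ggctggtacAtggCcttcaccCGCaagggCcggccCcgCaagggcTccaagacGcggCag
FGF18: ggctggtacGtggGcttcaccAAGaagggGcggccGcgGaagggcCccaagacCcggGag
No stretch of 50 bases was shared by the annotated transcripts of any 2 of the 10 members. The deposited posterior standard deviation of the counts was 0 for every member in every library.

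**Figure D3:**
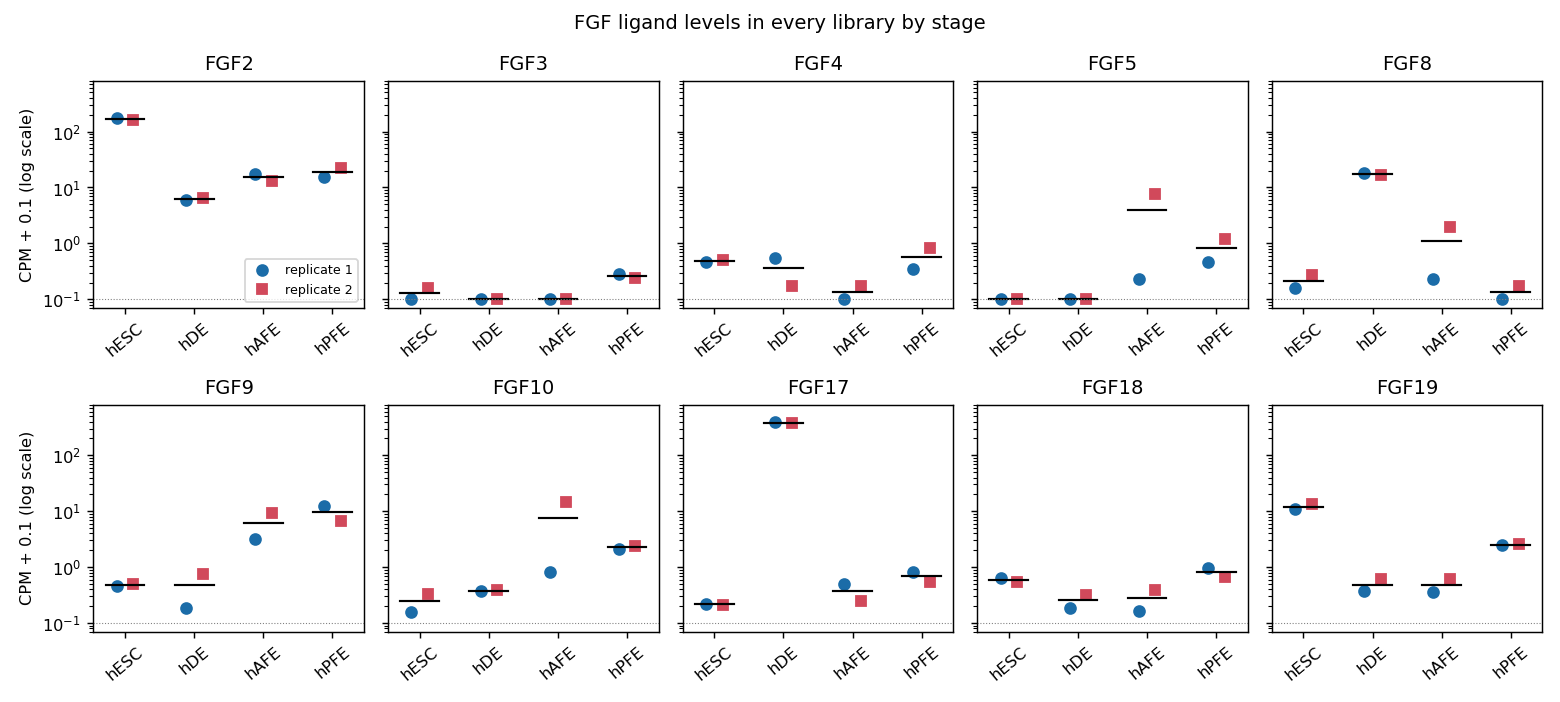
CPM plus 0.1 on a log scale (y axis) of each of the 10 FGF ligands in the 2 libraries of each stage (x axis), with replicate 1 as circles, replicate 2 as squares and the stage mean as a line; the dotted line marks 0 CPM. FGF17 and FGF8 peak in hDE, FGF2 and FGF19 are highest in hESC, and FGF5, FGF8 and FGF10 have a wide gap between the hAFE libraries.

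FGF2, or basic FGF, lacks a classical signal peptide and is exported without one. Its gene lies at hg38 chr4:122826708-122898236 on the plus strand. FGF2 was at 5.96 and 6.37 CPM in hDE, against 172 and 162 CPM in hESC. The stages did not overlap, and the fall was 27.0-fold (log2 fold change -4.75 ± 0.244, edgeR adjusted p = 2.55e-05). In hAFE it was at 17.2 and 12.8 CPM, above both hDE libraries by a log2 fold change of 1.28 ± 0.229 (edgeR adjusted p = 0.00510). In hPFE it was at 15.3 and 22.2 CPM, which overlapped hAFE (log2 fold change 0.32 ± 0.213, edgeR adjusted p = 0.387). The order of stage means was hESC, hPFE, hAFE and hDE, and hPFE and hAFE were the neighbours that the test did not separate. The foregut stages stayed below hESC, by a log2 fold change of -3.47 ± 0.224 in hAFE and -3.16 ± 0.220 in hPFE (edgeR adjusted p = 8.41e-05 and 9.78e-05). Per length, FGF2 in hESC was at 11.7 TPM in each library.

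The last 9540 bases of FGF2 overlap NUDT6, a gene on the opposite strand. The antisense gene AC021205.3 (chr4:122881878-122884712) lies wholly inside FGF2 on the same strand as NUDT6 and had 2 to 7 counts a library. NUDT6 was not called in any of the 6 comparisons. Its level was 5.25 and 2.90 CPM in hDE, against 6.85 and 5.94 CPM in hESC (log2 fold change -0.66 ± 0.322, edgeR adjusted p = 0.138). The libraries keep the strand, but whether the counting used it is not stated.

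FGF19, FGF4 and FGF3 lie in a row on chromosome 11, all on the minus strand. FGF19 is at chr11:69698232-69704642, FGF4 at chr11:69771016-69775403 and FGF3 at chr11:69809969-69819024, so the row spans 121 kb. FGF19 is the human hormone of bile acid control that acts through FGFR4 with the co-receptor KLB. FGF4 and FGF3 belong to other subfamilies, FGF4 being a ligand of early embryonic cells and FGF3 one of the ear and pharynx in the mouse.

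FGF19 fell, stayed low and came back in part. It was at 0.267 and 0.507 CPM in hDE, against 10.7 and 13.2 CPM in hESC, without overlap (log2 fold change -4.89 ± 0.442, edgeR adjusted p = 0.000211). In hAFE it was at 0.264 and 0.512 CPM, which overlapped hDE (log2 fold change -0.04 ± 0.522, edgeR adjusted p = 0.966). In hPFE it was at 2.37 and 2.45 CPM, or 39 and 34 counts. That was 6.16-fold above hAFE (log2 fold change 2.62 ± 0.438, edgeR adjusted p = 0.0158), and without library 2 of hESC the adjusted p was 0.0513, as it was 0.119 with the 4 libraries of hPFE and hAFE alone. In hPFE the level was still below hESC (log2 fold change -2.30 ± 0.361, edgeR adjusted p = 0.00214). The order of means was hESC, hPFE, hAFE and hDE, of which hAFE and hDE did not differ by the test.

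FGF4 had 6 and 7 counts in hESC, 5 and 1 in hDE, 0 and 1 in hAFE, and 4 and 10 in hPFE. FGF3 had 0 and 1 counts in hESC, 0 in both libraries of hDE and of hAFE, and 3 and 2 in hPFE. The scaled ratio of FGF4 counts in hPFE to hAFE was 13.3, with a 95% counting interval of 2.02 to 562. Fitted without the count filter, FGF4 did not pass for hPFE vs hAFE (edgeR adjusted p = 0.0694). FGF3 in hPFE was at least 1.58-fold higher than in hAFE, where a stage total of 0 is set to 3 counts. So FGF19 was the one gene of the row with more than 10 counts in any library.

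CCND1, the cyclin D1 gene, lies beyond FGF19 on the other side of LTO1 and was named after its values were seen. It was at 6.59 and 5.58 CPM in hDE, against 74.7 and 77.5 CPM in hESC (log2 fold change -3.65 ± 0.254, edgeR adjusted p = 8.23e-05). CCND1 was at 246 and 153 CPM in hAFE and 438 and 402 CPM in hPFE, where FGF19 was at 0.264 and 0.512 CPM and at 2.37 and 2.45 CPM. The processed pseudogene AP001888.1, which lies between FGF19 and FGF4, had 0 counts in every library.

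FGF9 gives its name to a subfamily with FGF16 and FGF20, and in the mouse is made by epithelium and mesothelium of the developing lung. It was low before the foregut stages and higher in both of them. FGF9 was at 0.0890 and 0.652 CPM in hDE, against 0.360 and 0.396 CPM in hESC, so the stages overlapped (log2 fold change 0.04 ± 0.931, edgeR adjusted p = 0.979). In hAFE it was at 3.11 and 9.14 CPM, above both hDE libraries (log2 fold change 3.94 ± 0.802, edgeR adjusted p = 0.00881). That call was lost without library 1 of hDE, the library with 1 count (adjusted p = 0.0564). In hPFE FGF9 was at 12.1 and 6.71 CPM, which overlapped hAFE (log2 fold change 0.62 ± 0.622, edgeR adjusted p = 0.564). Against hESC the hPFE level was 24.3-fold higher (log2 fold change 4.61 ± 0.782, edgeR adjusted p = 0.00301). The order of means was hPFE, hAFE, hESC and hDE, and the test separated neither the first pair of neighbours nor the last.

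FGF10, which in the mouse is made by mesenchyme and acts on lung and pharyngeal epithelium through FGFR2, lies at chr5:44303544-44389706 on the minus strand. It was at 0.727 and 14.5 CPM in hAFE, against 0.267 and 0.290 CPM in hDE. Both hAFE libraries lay above hDE, but library 2 was 19.9-fold above library 1. The log2 fold change was 4.72 ± 1.32 with both libraries (edgeR adjusted p = 0.0302) and 1.36 without library 2 of hAFE (adjusted p = 0.257). The call was also lost without any 1 of the hESC or hDE libraries, where the adjusted p was 0.0514, 0.0516, 0.156 and 0.161. In hAFE vs hESC the log2 fold change was 5.63 ± 1.38 (edgeR adjusted p = 0.0153), and 2.26 without library 2 of hAFE (adjusted p = 0.0699). Without library 1 or library 2 of hESC the adjusted p was 0.102 or 0.0791. In hPFE FGF10 was at 2.00 and 2.31 CPM, between the hAFE libraries, and the order of means was hAFE, hPFE, hDE and hESC (hPFE vs hAFE log2 fold change -1.81 ± 1.04, edgeR adjusted p = 0.312). Against 0.0601 and 0.226 CPM in hESC, the hPFE level had a log2 fold change of 3.82 ± 1.39 (edgeR adjusted p = 0.0560). That comparison passed when library 1 or library 2 of hAFE was left out (adjusted p = 0.00111 and 0.00266), with the values of hPFE and hESC as before. In CPM, FGF10 was 1.15-fold higher in library 2 of hPFE than in library 1. Of the mesenchymal markers in CPM, library 2 was at 0.74 of library 1 for COL1A1, 0.60 for PDGFRB and 0.024 for COL3A1. DCN had 73 and 5 counts in these libraries and TWIST1 had 23 and 2. The part of mesenchymal cells in the FGF10 level was not tested. The antisense gene FGF10-AS1, which overlaps FGF10 by 975 bases, had 0 CPM in 7 of 8 libraries and 0.0607 CPM in library 1 of hPFE.

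FGF5, a ligand that marks the mouse epiblast after implantation and limits hair growth, had 0 counts in all 4 libraries of hESC and hDE. It had 2 and 103 counts in hAFE and 6 and 15 counts in hPFE, or 0.132 and 7.53 CPM in hAFE and 0.364 and 1.08 CPM in hPFE. With a stage total of 0 set to 3 counts, hAFE was at least 41.7-fold above hESC and at least 30.4-fold above hDE, and hPFE was at least 7.92-fold above hESC. The hAFE bounds rested on library 2. The stage mean was highest in hAFE, then in hPFE, but the libraries of these stages overlapped. FGF5 passed in hAFE vs hESC (edgeR adjusted p = 0.0475) and not in hAFE vs hDE (adjusted p = 0.0702), although hESC and hDE were both at 0. Without library 2 of hAFE the adjusted p for hAFE vs hESC was 0.230, and it lay between 0.0581 and 0.156 without any 1 of the hESC, hDE or hPFE libraries. For hPFE vs hAFE the fitted log2 fold change was -2.41 ± 1.4996 (edgeR adjusted p = 0.367), and it was 2.35 without library 2 of hAFE.

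The wide gap between the hAFE libraries was a feature of several ligands together. Library 2 was 57.0-fold above library 1 for FGF5, 19.9-fold for FGF10, 14.4-fold for FGF8 and 2.94-fold for FGF9, while FGF2 was at 0.742 of its level in library 1. FGF17 was also lower in library 2, at 0.146 CPM against 0.396 CPM in library 1. FGF19 was at 0.264 CPM in library 1 and 0.512 CPM in library 2. Among the 17446 tested genes, the absolute log2 difference between the hAFE libraries was larger than in 99.8% of genes for FGF5, 99.6% for FGF10 and 98.6% for FGF8. The share was 93.8% for FGF9, 85.3% for FGF17, 79.3% for FGF19 and 64.9% for FGF2. Of the 13 feedback and target genes, 6 were more than 1.5-fold higher in library 2, 2 were more than 1.5-fold lower and 5 lay within 1.5-fold, with a median fold of 1.27. These are single libraries, and the list was not tested. ETV5 was 6.94-fold, SPRY4 6.59-fold, SPRY1 5.30-fold and ETV4 4.71-fold above library 1, whereas DUSP6 was at 0.461 and SPRY3 at 0.641 of the level in library 1. ETV1 and SPRED1 (1.08-fold each), SPRED2 (1.19-fold) and SPRY2 (1.27-fold) differed little. Across all tested genes the SD of the log2 difference between libraries was 0.441 for hESC and 0.498 for hDE, then 0.810 for hAFE and 0.782 for hPFE. The 7 pharyngeal markers summed to 12.8 TPM in library 1 and 30.6 TPM in library 2 of hAFE. The 7 foregut markers summed to 178 and 218 TPM and did not move together. FOXA1 (20.91 and 6.86 TPM), FOXA2 (10.91 and 4.47 TPM) and SOX2 (40.28 and 13.88 TPM) were lower in library 2. OTX2 (5.52 and 99.75 TPM) and HHEX (0.08 and 1.30 TPM) were higher. EPCAM was at 81.35 and 75.95 TPM and CDH1 at 18.77 and 15.75 TPM. The 5 neural markers summed to 82.2 and 57.8 TPM, of which TUBB3 gave 81.5 and 57.7 TPM. The 5 mesenchymal markers summed to 2.23 and 3.07 TPM. Whether the makeup of the cultures differed with the ligands was not tested.

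**Figure D4:**
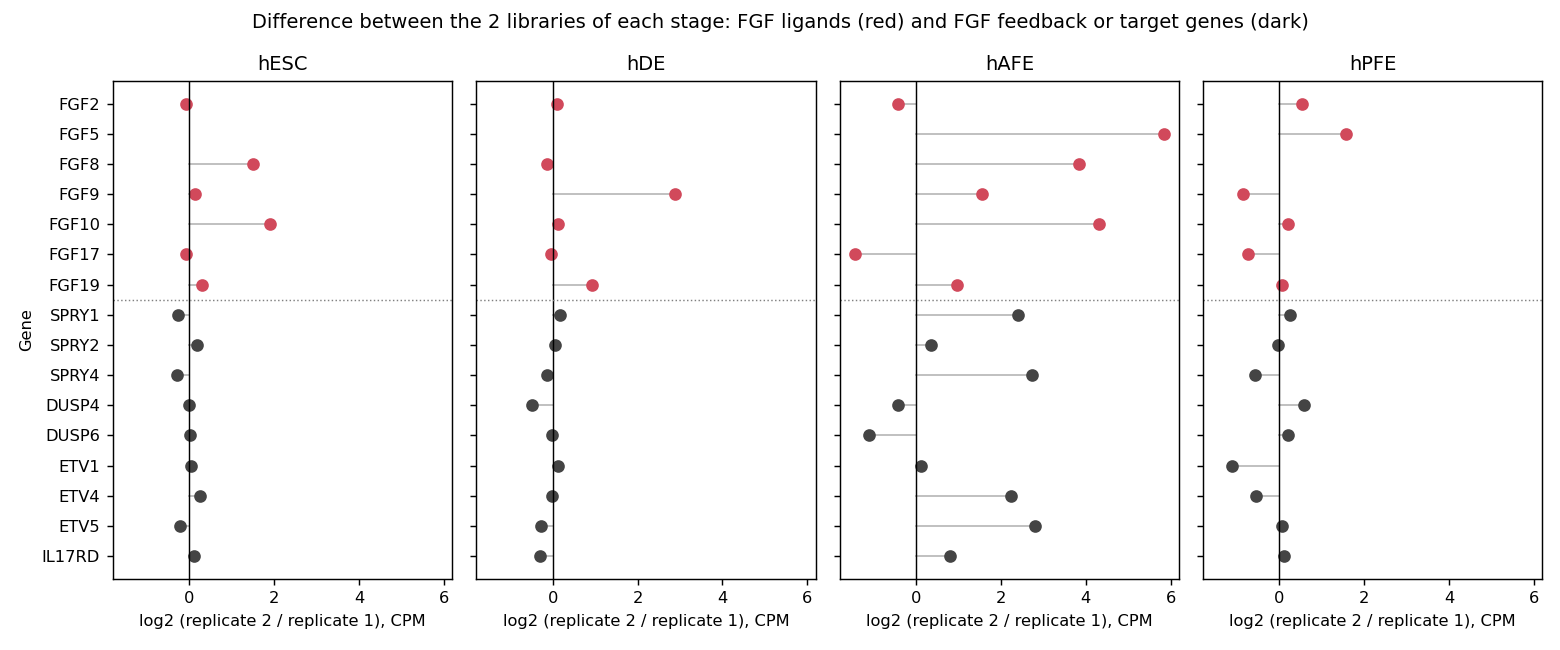
Log2 ratio of CPM in replicate 2 over replicate 1 (x axis) for the 7 tested FGF ligands (red, above the dotted line) and 9 feedback or target genes (dark), by stage, with no point where a library had 0 counts. FGF5, FGF10 and FGF8 lie far right in hAFE with SPRY1, SPRY4, ETV4 and ETV5, while DUSP6 lies left.

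On the receiving side, 5 of 7 receptors and co-receptors were tested. In hDE vs hESC FGFR1, FGFR2 and FGFR4 fell, FGFRL1 rose, and FGFR3 did not pass. The median log2 fold change of the 5 was -1.61, where that of all tested genes was -0.01. FGFR1, the most abundant receptor per length in hESC, was at 87.2 and 78.2 CPM in hDE, against 320.5 and 320.2 CPM in hESC (log2 fold change -1.95 ± 0.239, edgeR adjusted p = 0.000766). FGFR4 was at 9.35 and 8.91 CPM in hDE, against 51.5 and 51.0 CPM in hESC (log2 fold change -2.49 ± 0.711, edgeR adjusted p = 0.0252). FGFRL1, a receptor-like protein without the kinase, was at 21.7 and 19.3 CPM in hDE, against 6.13 and 4.58 CPM in hESC (log2 fold change 1.94 ± 0.239, edgeR adjusted p = 0.000788). In hAFE vs hDE FGFR1, FGFR2 and FGFRL1 rose, with a median of 1.13 over the 5 and 0.01 over all genes. FGFR2, the receptor of FGF10, was at 62.3 and 54.6 CPM in hAFE, against 22.3 and 20.6 CPM in hDE (log2 fold change 1.45 ± 0.167, edgeR adjusted p = 0.000805). In hPFE vs hAFE FGFR1 fell, to 84.7 and 49.1 CPM in hPFE, against 200 and 189 CPM in hAFE (log2 fold change -1.54 ± 0.237, edgeR adjusted p = 0.0123), and the other 4 did not pass. FGFR4 and KLB serve FGF19. In hPFE, where FGF19 rose again, FGFR4 was at 3.28 and 1.15 CPM and KLB at 0 in both libraries, and KLB stayed at or below 0.396 CPM in every library.

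**Figure D5:**
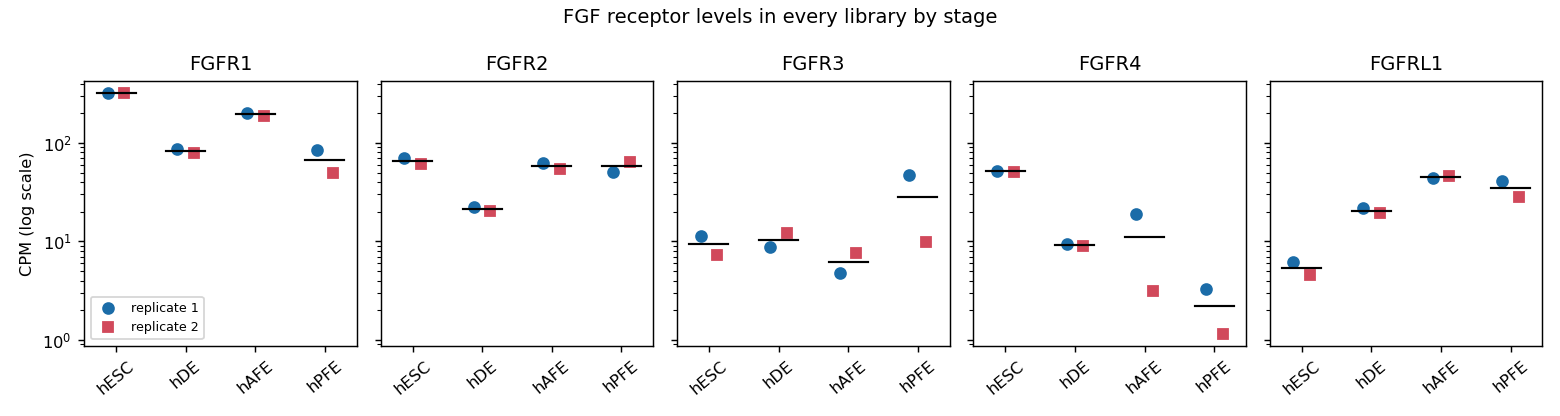
CPM on a log scale (y axis) of the 5 tested FGF receptors in the 2 libraries of each stage (x axis), with replicate 1 as circles, replicate 2 as squares and the stage mean as a line. FGFR2 is lowest in hDE, FGFR1 and FGFR4 are highest in hESC, and FGFRL1 is lowest in hESC.

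All 13 feedback and target genes were tested, and they did not move as a block. Of all tested genes, 41.9% were called in hDE vs hESC, 30.2% in hAFE vs hDE, 7.49% in hPFE vs hAFE and 45% in hPFE vs hESC. In hDE vs hESC 3 rose and 5 fell, with a median log2 fold change of -1.01. The MAP kinase phosphatase DUSP4 was at 371 and 265 CPM in hDE, against 13.4 and 13.3 CPM in hESC (log2 fold change 4.57 ± 0.286, edgeR adjusted p = 5.83e-05). The brake SPRED2 also rose (log2 fold change 2.32 ± 0.167, edgeR adjusted p = 9.12e-05). The transcription factor ETV1 was at 11.6 and 12.5 CPM in hDE, against 96.9 and 100.3 CPM in hESC (log2 fold change -3.03 ± 0.332, edgeR adjusted p = 0.000472). SPRY1, a Sprouty brake, fell as well (log2 fold change -2.60 ± 0.709, edgeR adjusted p = 0.0211). In hAFE vs hDE 3 rose and 5 fell, with a median of 0.24. SPRY1 rose (log2 fold change 3.87 ± 0.722, edgeR adjusted p = 0.00612) at 11.5 and 61.0 CPM in hAFE, against 2.31 and 2.61 CPM in hDE, and DUSP4 fell (-2.74 ± 0.261, adjusted p = 0.000348). ETV4 and SPRY4 fell too, with log2 fold changes of -2.41 ± 0.557 and -2.25 ± 0.653 (edgeR adjusted p = 0.0148 and 0.0350). In hPFE vs hAFE 1 rose and 0 fell, with a median of 0.06. The gene that rose was ETV1, at 58.8 and 27.1 CPM in hPFE, against 14.4 and 15.5 CPM in hAFE (log2 fold change 1.52 ± 0.316, edgeR adjusted p = 0.0310). In hPFE vs hESC 3 rose and 5 fell, with a median of -0.13 where that of all tested genes was 0.02. SPRY4 had the largest change (log2 fold change -3.40 ± 0.669, edgeR adjusted p = 0.00545). DUSP6, a phosphatase of ERK, was at 95.01 and 108 CPM in hPFE, against 315 and 317 CPM in hESC (log2 fold change -1.64 ± 0.312, edgeR adjusted p = 0.00482).

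Among the 12 other FGF genes, 5 were tested. FGF11, FGF12 and FGF13 belong to the FGF homologous factors, which stay inside the cell and bind sodium channels. FGF13 was at 4.32 and 4.10 TPM in hESC, 5.27 and 5.25 TPM in hDE, 14.6 and 15.1 TPM in hAFE, and 14.1 and 16.8 TPM in hPFE. In CPM, FGF13 rose in hDE vs hESC (log2 fold change 1.12 ± 0.157, edgeR adjusted p = 0.00129) and did not pass in hAFE vs hDE (-0.08 ± 0.154, adjusted p = 0.731). FGF20, the relative of FGF9, was at 15.5 and 12.6 CPM in hPFE, against 0.781 and 0.791 CPM in hESC (log2 fold change 4.15 ± 0.672, edgeR adjusted p = 0.00247). Per length it was at 7.98 and 8.19 TPM in hPFE, where FGF9 was at 2.12 and 2.07 TPM. In hPFE vs hAFE FGF20 did not pass (log2 fold change 2.44 ± 0.607, edgeR adjusted p = 0.0524). FGF11 was at 1.78 and 2.63 CPM in hAFE, against 7.30 and 5.14 CPM in hDE (log2 fold change -1.49 ± 0.330, edgeR adjusted p = 0.0124), and rose in hPFE vs hAFE (2.06 ± 0.329, adjusted p = 0.0133). FGF12 passed in 1 of 6 comparisons, hAFE vs hESC, where it fell (log2 fold change -1.03 ± 0.304, edgeR adjusted p = 0.0299). Over all 22 FGF genes, the 10 ligands described here were 2.70 of 19.5 TPM in library 1 and 10.9 of 29.6 TPM in library 2 of hAFE. In hDE they were 85.1 of 92.5 TPM in library 1 and 85.0 of 92.8 TPM in library 2.

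For each called ligand, the genes with the most similar profile over the 8 libraries were found by Pearson's r of log2 CPM, among genes that reach 10 CPM in some stage. These values describe 4 pairs of libraries and carry no test. FGF17 was most like ACOX3 (r = 0.999) and ASB5 (0.998), and FGF8 most like LINC02413 (0.994) and MCF2L2 (0.994). FGF2 was most like CD24 (0.997) and HAS3 (0.991), and FGF19 most like PFKP (0.989) and MGAT4C (0.986). FGF9 was most like ID4 (0.987) and MAGI2-AS3 (0.982). FGF5 was most like CYP26C1 (0.992) and AL358613.3 (0.978), and FGF10 most like HDAC8 (0.969) and CYP26C1 (0.968). CYP26C1, an enzyme that breaks down retinoic acid, was thus named for both FGF5 and FGF10, the pair with the widest gap between the hAFE libraries. At r of 0.95 or more there were 168 genes for FGF17, 120 for FGF2, 43 for FGF19, 33 each for FGF8 and FGF9, and 9 each for FGF5 and FGF10.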

How the data were processed

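Total RNA, per the labels' protocols, had its ribosomal RNA removed and was made into strand-specific dUTP libraries sequenced from both ends. The submitters' processing notes name RSEM, DESeq2 and hg38. Neither the aligner nor the strand setting of the counting is stated in the sources used here. The authors deposited for each library a gene table of RSEM, which holds expected counts, TPM, FPKM, effective lengths and posterior standard deviations, per the file headers.

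The deposited expected counts, rounded to whole numbers, were tested with edgeR 4.0.16 in R 4.3.3. The fit used TMM scaling, filterByExpr, all 8 libraries with a term for each stage (4 residual degrees of freedom), the quasi-likelihood test and Benjamini-Hochberg adjustment over 17446 genes, with a threshold of 0.05. SEs were the log2 fold change divided by the root of F. Library totals were 12687160.9 to 17802899.9 expected counts. Rows other than genes (746) held 0 counts. Ratios of summed counts carry exact 95% binomial intervals, and a stage at 0 was set to 3 counts over its libraries. The intervals and floors hold for counting error alone, since PCR copies of a molecule were not marked. TPM was used as deposited. RN7SL RNA took 20.1% to 38.2% of TPM and nuclear protein-coding genes 12.9% to 30.3%, so stages are tested on counts, and TPM of different stages is set side by side without a test outside the limma alternatives. The alternatives were RLE scaling, DESeq2 1.42.0, other count filters, the 4 libraries compared, a replicate block, limma 3.58.1 on log2 TPM, voom and leaving out each library.

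The members and lists were chosen with earlier results of these data known. Named are the 10 members, up to 4 of the best-expressed other FGF genes, up to 4 called receptors and 4 called feedback genes a comparison by size of change, genes on the other strand of members or between FGF19, FGF4 and FGF3, and the 2 genes most correlated with each called member. Receptors and feedback genes named beyond that, CCND1 and the genes that differ between the hAFE libraries were chosen after their values were seen. Gene positions and coding sequences are from GENCODE 29 on hg38.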

Additional observations from a re-analysis of the deposited data

How the results depend on the processing

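In hDE vs hESC the calls of FGF17, FGF8, FGF2 and FGF19 held under all 18 alternatives. Of 710 member values under alternatives, 626 kept their direction and side of the threshold, 34 lost a call, 35 gained one and 15 changed sign. The sign changes all concern values that did not pass. FGF9 in hDE vs hESC (0.04) was -0.0029 with DESeq2, -0.0335 with the replicate block, -0.36 with voom, -0.0882 and -0.59 with limma on log2(TPM + 1) and log2(TPM + 0.1), -0.26 over nuclear protein-coding genes (an alternative chosen after seeing the data), -0.0359 without hESC replicate 1, and -2.02 to 0.77 leaving out 1 library. FGF19 in hAFE vs hDE (-0.04) was 0.0599, 0.36 and 0.0506 in those 3 TPM fits, and -0.57 to 0.52 leaving out 1 library. In hPFE vs hAFE, leaving out 1 library gave -3.40 to 2.35 for FGF5 and -2.75 to 1.55 for FGF10, with the highest values without hAFE replicate 2. The count of members called in hPFE vs hAFE (1) was 2 with DESeq2, 4 with no count filter, 0 with the 4 libraries alone, with log2(TPM + 1) and with voom, and 0 to 3 leaving out 1 library. In hAFE vs hESC (5) it was 3 with log2(TPM + 1), 3 over protein-coding genes and 2 to 6 leaving out 1 library. In hAFE vs hDE (5) it was 2 to 6 leaving out 1 library, with 2 and 3 without hDE replicate 1 and 2. Calls over all tested genes also varied with the library left out, and in hAFE vs hDE they fell without either hDE library. Member counts with 1 library left out therefore do not set the ligands apart from other genes. The cause of the fall was not tested. Leaving out 1 library gave 4 to 4 members in hDE vs hESC, 3 to 6 in hPFE vs hESC and 5 to 7 in hPFE vs hDE. FGF10 in hAFE vs hDE lost its call under 9 of the 18 alternatives, among them the 4 libraries alone (adjusted p = 0.0751), voom (0.0953) and log2(TPM + 1) (0.0800, and 0.109 over protein-coding genes). In hAFE vs hESC it lost its call under 5, among them log2(TPM + 1) (0.107, and 0.0544 over protein-coding genes). FGF9 in hAFE vs hESC lost its call without hESC replicate 1 or 2 (adjusted p = 0.0568 and 0.0572).

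On log2(TPM + 1) the median of all genes shifted by -0.37 in hDE vs hESC, 0.63 in hAFE vs hDE, 0.17 in hPFE vs hAFE and 0.48 in hPFE vs hESC, and the calls split 845 higher to 3972 lower in hDE vs hESC, where the counts gave 3533 to 3771, and 6379 to 672 in hAFE vs hDE, where they gave 2609 to 2658. In hPFE vs hAFE all-gene calls were 1306, but 52 with the 4 libraries alone, 447 with voom and 3234 with no count filter. The labels do not say whether replicate numbers pair libraries of different stages. Differences between replicates 2 and 1 correlated at -0.0434 to 0.0605 between stages, a check that cannot exclude pairing. With the replicate block, members called were 4 in hDE vs hESC, 6 in hAFE vs hDE, 1 in hPFE vs hAFE, 6 in hPFE vs hESC, 5 in hAFE vs hESC and 5 in hPFE vs hDE. In the same order, the block gave 6909, 4941, 1072, 7494, 6471 and 5493 calls among all 17446 tested genes. Depth limits FGF3, FGF4 and FGF18, which had at most 14 counts a library.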
